A study of Mus musculus with 6 samples.

Results

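The epidermal growth factor (EGF) family genes Ereg, Areg, Hbegf, Tgfa, Btc and Nrg1 were followed in mouse macrophages, with every probe set that maps to 1 of them and to no other gene. Of the 6 genes, 5 had such a probe set, out of 18193 genes in all, and together they had 9 of the 45037 probe sets that are not controls. Areg was not analysed here, because no probe set was assigned to it. The family was chosen from earlier results on these same arrays, in which Ereg stood out between the genotypes. Both the genotype and the LPS values of the members are therefore given as a description, with no test of their own.

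The 6 samples, 1 Affymetrix array each, form 4 groups: LPS-treated macrophages labelled as Trib1 knockout (n = 2), LPS-treated wild-type macrophages of the Trib1 experiment (n = 2), wild-type macrophages given LPS (n = 1) and wild-type macrophages given medium (n = 1). LPS, lipopolysaccharide, is a bacterial cell wall component that activates macrophages through a Toll-like receptor, and Trib1 encodes a pseudokinase. By the design text the last pair serves to find LPS-inducible genes, and the other 4 arrays serve to compare the genotypes. They are called the stimulation pair and the genotype arrays. The labels do not give the tissue source of the macrophages, the strain, age, LPS dose or duration, the design of the Trib1 deletion, or whether arrays of 1 genotype stem from different animals. Any spread between them may therefore be technical.

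Members of the EGF family are made as membrane-anchored precursors, from which proteases such as ADAM17 release the soluble growth factor. The released factors bind the ERBB receptors, a family of receptor tyrosine kinases that signal through RAS and ERK. Ereg (epiregulin), Hbegf (heparin-binding EGF-like growth factor) and Btc (betacellulin) bind EGFR and ERBB4, Areg (amphiregulin) and Tgfa (transforming growth factor alpha) bind EGFR, and Nrg1 (neuregulin 1) binds ERBB3 and ERBB4. Macrophages are a known source of Hbegf, Areg and Ereg in inflamed and healing tissue.

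Values are MAS5 intensities that were rescaled so that each array has the same mean without its lowest and highest 2%, namely 234. As deposited, this mean was equal on the arrays of the stimulation pair and lower, between 95.5 and 107, on the genotype arrays. A floor of 29.9, the 40th percentile of all values, was used as the limit of measurement, and 57.9% to 63.0% of probe sets lay above it on each array. All 11 macrophage markers with a probe set, of 13 listed, lay above the floor on all 6 arrays. Sex-linked genes set the stimulation pair apart: Xist measured 980.5 on the LPS array and 1616 on the medium array, and 2.0 to 5.6 on the genotype arrays. Eif2s3y measured 4.7 on the LPS array and 0.3 on the medium array, and 218.8 to 534.2 on the genotype arrays. Trib1 itself measured 88.1 and 20.9 on the knockout-labelled arrays, 17.9 and 17.5 on the wild-type genotype arrays, 189.3 on the LPS array and 383.5 on the medium array with 1424880_at. With 1424881_at it measured 32.3 and 38.7 on the knockout-labelled arrays and 20.2 and 63.0 on the wild-type ones. Where these probe sets lie relative to the deletion is not stated, so they cannot serve to check a genotype, and the term knockout-labelled is used for that reason.

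Of the member probe sets tested, that of Ereg was the one with both knockout-labelled arrays above both wild-type arrays. Its single probe set, 1419431_at, measured 262.3 and 264.8 on the knockout-labelled arrays, against 21.4 and 47.8 on the wild-type genotype arrays. It measured 21.3 on the LPS array and 15.6 on the medium array of the stimulation pair. Both knockout-labelled arrays therefore lay above every wild-type array, and of the 4 wild-type arrays only wild type 2 was above the floor. With values under the floor set to it, the log2 difference, knockout-labelled minus wild type, was 2.80 (SE 0.39, n = 2 per genotype), or 6.98-fold. This size depends on where the floor is put: with the floor at the 60th percentile the log2 difference was 1.90. Without wild type 2 it was 3.14, and without wild type 1 it was 2.46. On both arrays of the stimulation pair Ereg was under the floor, so no LPS ratio is given, and the knockout-labelled mean was at least 8.82-fold above the value on either of them. Because arrays measure a mixture, more cells with the transcript and more transcript per cell cannot be told apart. A single probe set measured Ereg, so no second one on the array checks it.

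**Figure D1:**
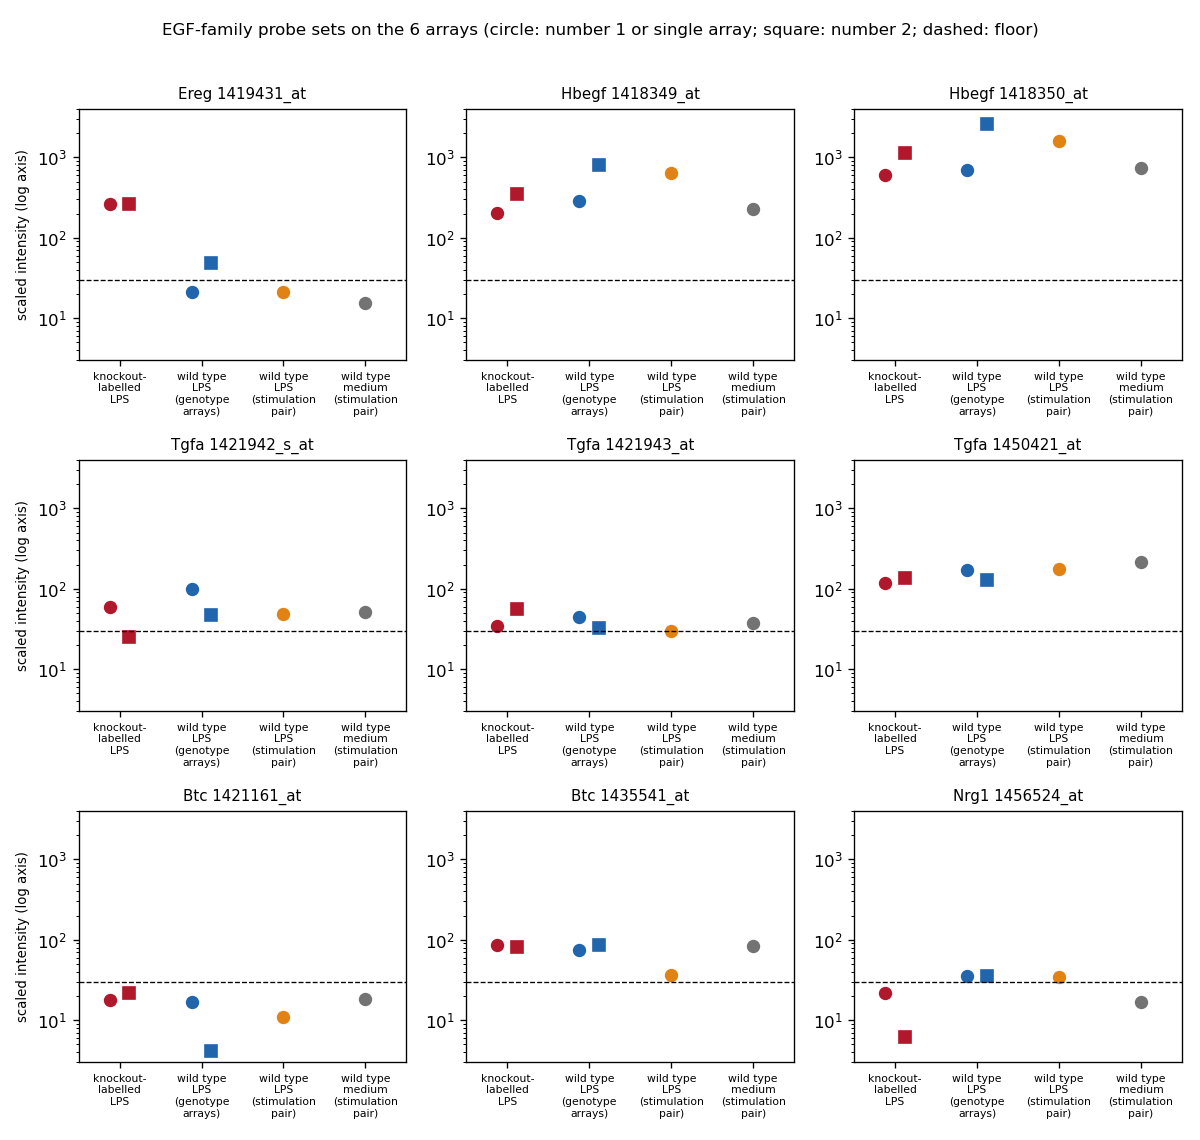
Scaled intensity (log axis) of the 9 EGF-family probe sets on the 6 arrays, 1 panel per probe set, with groups along the horizontal axis and the floor of 29.9 as a dashed line. Points are single arrays (squares for those numbered 2), and Ereg sits at 262.3 and 264.8 on the knockout-labelled arrays and at 47.8 or less on the 4 wild-type arrays.

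The genotypes overlapped in Hbegf. Its product is also the cell surface receptor of diphtheria toxin in humans. On 1418350_at it measured 608.9 and 1141 on the knockout-labelled arrays, against 693.6 and 2600 on the wild-type genotype arrays. On 1418349_at it measured 204.2 and 353.6 on the knockout-labelled arrays, against 286.6 and 799.9 on the wild-type ones. With both probe sets the array numbered 2 was higher than the array numbered 1 in each genotype, by 1.87-fold and 1.73-fold between the knockout-labelled arrays and by 3.75-fold and 2.79-fold between the wild-type arrays. The 2 wild-type arrays thus lay further apart than the group means did. The log2 difference, knockout-labelled minus wild type, was -0.69 (SE 0.65) on 1418350_at and -0.83 (SE 0.54) on 1418349_at (n = 2 per genotype). Wild type 2 carried most of it: without that array the difference was 0.27 on 1418350_at and -0.09 on 1418349_at, and without wild type 1 it was -1.64 and -1.57 on the same probe sets.

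Tgfa had 3 probe sets, none of which separated the genotypes. The first, 1450421_at, measured 117.2 and 134.8 on the knockout-labelled arrays, against 171.0 and 127.8 on the wild-type genotype arrays. The log2 difference was -0.23 (SE 0.33, n = 2 per genotype). On 1421942_s_at the values were 59.2 and 25.2 on knockout-labelled arrays and 100.3 and 46.5 on wild-type arrays, a log2 difference of -0.70 (SE 0.54). Here the arrays numbered 1 were the higher ones in both genotypes. On 1421943_at the values were 34.8 and 55.7 on knockout-labelled arrays and 44.5 and 32.4 on wild-type arrays, a log2 difference of 0.21 (SE 0.36). The genotypes overlapped on each of the 3 probe sets. The sign of 1421943_at rested on single arrays, with -0.02 without wild type 2 and -0.13 without knockout-labelled 2.

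Btc overlapped between the genotypes, and Nrg1 lay on either side of the floor. Btc measured 85.4 and 82.0 on the knockout-labelled arrays, against 73.6 and 85.0 on the wild-type genotype arrays, with 1435541_at (log2 difference 0.08, SE 0.35, n = 2 per genotype). Its second probe set, 1421161_at, was under the floor on all 6 arrays, at 4.1 to 21.8. Nrg1, with 1456524_at, measured 21.8 and 6.2 on the knockout-labelled arrays, both under the floor, against 35.8 and 35.1 on the wild-type arrays, both just above it. The wild-type mean was at least 1.19-fold higher, a bound that the floor sets. The log2 difference, knockout-labelled minus wild type, was -0.25 with this floor, -1.04 with the floor at the 25th percentile and -0.83 as log2(value + 16).

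**Figure D2:**
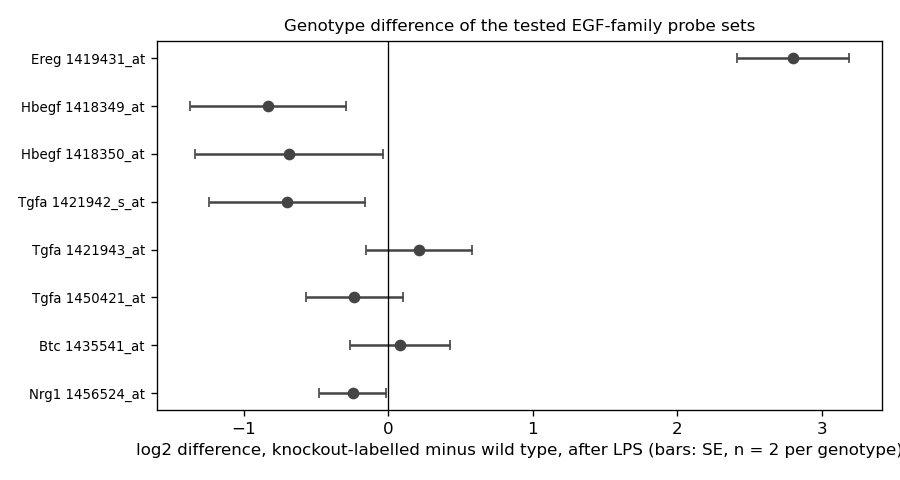
Log2 difference, knockout-labelled minus wild type, after LPS, for the 8 tested EGF-family probe sets (points), with the SE of the fit across all probe sets (bars, n = 2 per genotype). Ereg lies at 2.80, and the others lie between -0.83 and 0.21.

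Of the 9 member probe sets, 8 exceeded the floor on 2 or more genotype arrays and entered the fit of all probe sets (limma, Benjamini-Hochberg adjusted over 29078). The fit called 0 of the 8, and 0% of all tested. At an unadjusted p under 0.05 it counted 663 probe sets with higher and 788 with lower values on the knockout-labelled arrays, in sum 1451 where 1454 would be given by chance. Leaving out wild type 1, wild type 2, knockout-labelled 1 or knockout-labelled 2 gave 5, 12, 28 and 68 calls, none of them a member. Each such fit has 1 array in a genotype and takes its spread from the other genotype alone. Both knockout-labelled arrays lay above both wild-type arrays for 1 of the 8 (Ereg), where 15.4% of all tested did. They lay below for 1 of the 8 (Nrg1), where 16.3% did. Nrg1 entered the fit through the wild-type arrays alone, so it could only lie below. With a gap of at least 2-fold, Ereg was the only member, and 0.389% of all tested were higher by that rule. A log2 difference as large as that of Ereg or larger was seen in 12 of the 29078 probe sets. These shares are background to a contrast that was known when the family was chosen, and nothing is read from them.

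Markers of several cell types, those of macrophages among them, also lay apart on the arrays on which Ereg did, although limma called none of them. Of 12 neutrophil markers, 10 had a probe set, all 10 above the floor on at least 1 array. In 5 of the 9 tested both knockout-labelled arrays lay above both wild-type arrays, and in 1 below. Camp and S100a9 entered the fit through the knockout-labelled arrays alone, being under the floor on both wild-type arrays, so they could only lie above. Over all tested probe sets 15.4% lay above and 16.3% below in this way, which is the background for each marker count given here. Their summed intensity was 21206 and 10604 on the knockout-labelled arrays, against 3749 and 3226 on the wild-type genotype arrays, and most of it came from the calgranulin genes S100a8 and S100a9 and from Mmp8 and Csf3r. Granule genes did not share a direction: Camp measured 219.9 and 66.9, against 11.0 and 7.0, Ltf measured 40.2 and 12.7, against 87.0 and 87.2, and Elane and Mpo lay between 64.4 and 95.5 on these 4 arrays. None of the 10 markers was listed at 0. Mesothelial, epithelial and stromal markers (all 11 above the floor on at least 1 array) summed to 1429 and 3560 on the knockout-labelled arrays, against 1063 and 1282 on the wild-type ones. They were higher in 4 of 9 tested and lower in 0, and the rest overlapped. Those higher were Msln, Krt8 and the collagen genes Col1a1 (239.2 and 861.8, against 146.8 and 140.3) and Col1a2 (495.6 and 1190, against 385.6 and 374.1). The collagen gene Col3a1 overlapped (312.8 and 942.5, against 170.2 and 357.5), as did Pdgfra (53.8 and 122.8, against 82.2 and 117.1). The log2 differences of Pdgfra and Wt1 were below 0, at -0.27 and -0.09. Mast cell and basophil markers (8 of 8 with a probe set) summed to 582.8 and 292.4, against 727.2 and 1054. Of 5 tested, 4 were lower on both knockout-labelled arrays. Fcer1a, among these, entered the fit through the wild-type arrays alone and could only lie below. Hdc, which was not tested, measured 373.1 and 17.3, against 28.2 and 24.3, and made up much of the sum on knockout-labelled 1. All 4 B cell markers tested were lower, summing to 252.3 and 372.0, against 473.5 and 583.8. The 11 macrophage markers summed to 120976 and 123163, against 101965 and 115377, and 6 of the 11 tested lay above and 1 below. Of T, NK and innate lymphoid markers 1 of 4 tested lay above and 0 below. Of dendritic cell markers 0 of 5 tested lay above and 1 below. The 1 eosinophil marker tested overlapped. The neutrophil sum was higher on knockout-labelled 1 and the mesothelial and stromal sum on knockout-labelled 2. Single genes weigh heavily in such sums: S100a9 measured 6906 on knockout-labelled 1 and 205.6 on knockout-labelled 2, and S100a8 8853 and 7314. Ereg measured 262.3 and 264.8 on the same arrays. The part of these cells in the Ereg values was not tested.

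In the stimulation pair, Hbegf had the highest ratio to medium among the members. On 1418350_at it measured 1596 on the LPS array and 729.0 on the medium array (2.19-fold), and on 1418349_at 630.1 and 226.4 (2.78-fold). The wild-type genotype arrays, which also received LPS, lay on both sides of these values. Wild type 2 was 3.57-fold and 3.53-fold above the medium array on the same probe sets, and wild type 1 was 0.951-fold and 1.27-fold. Hbegf therefore stood near the medium level on 1 of 3 wild-type LPS arrays.

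The other members were nearer to, or below, their medium values. Btc (1435541_at) measured 36.1 on the LPS array and 83.1 on the medium array, 2.30-fold lower after LPS. On the wild-type genotype arrays Btc was 0.885-fold and 1.02-fold of medium, so the low value belonged to 1 of the 3 wild-type LPS arrays. With the floor at the 60th percentile the log2 ratio of Btc in the stimulation pair was -0.24, against -1.20 with the floor used here. Tgfa measured 174.1 on the LPS array and 212.1 on the medium array with 1450421_at, 48.7 and 51.5 with 1421942_s_at, and 29.9 and 37.6 with 1421943_at, with ratios of 0.821, 0.946 and 0.796. Wild type 1 was 1.95-fold above medium on 1421942_s_at, and wild type 2 was 0.902-fold. Nrg1 measured 34.4 on the LPS array and 16.8, under the floor, on the medium array, at least 1.15-fold higher.

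**Figure D3:**
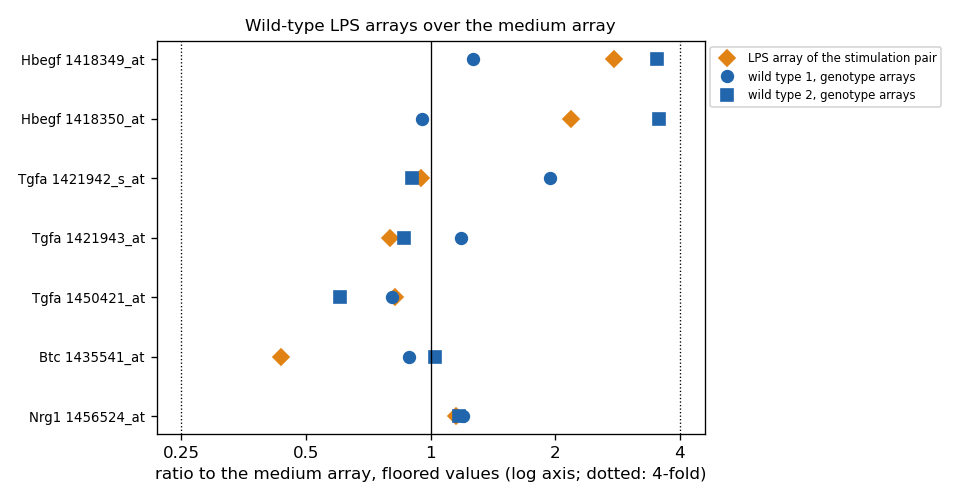
Ratio of each wild-type LPS array to the single medium array (log axis, values under the floor set to it) for the 7 member probe sets measured in the stimulation pair. Diamonds are the LPS array of the stimulation pair, circles and squares wild type 1 and 2 of the genotype arrays, and dotted lines mark 4-fold. The Hbegf points spread from 0.951-fold to 3.57-fold, and no point passes 4-fold.

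Among the 7 member probe sets above the floor on 1 or both arrays of the stimulation pair, 0 passed a 4-fold rule in either direction, where 0.986% of all measured were 4-fold higher and 0.598% 4-fold lower. By a 2-fold rule both Hbegf probe sets were higher (5.02% of all) and 1 Btc probe set was lower (6.29% of all). There is 1 array per condition, so no test applies to this pair. The 3 wild-type LPS arrays together were also set against the medium array (limma, Benjamini-Hochberg adjusted), taking the spread of the single medium array to be that of the LPS arrays. These arrays mix both experiments, which stood apart in sex-linked genes. This called 0 of 7 member probe sets tested and, over all 29280, 0% higher and 0% lower. Unadjusted p was under 0.05 for 1079 higher and 2065 lower. The mean log2 difference over medium was 0.96 (SE 0.88) and 1.21 (SE 0.72) for the Hbegf probe sets 1418350_at and 1418349_at. On 1418350_at the medium array, at 729.0, lay within the range of the 3 LPS arrays (693.6 to 2600). On 1418349_at the medium array, at 226.4, lay below all 3, with wild type 1 the nearest at 286.6.

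The other ligand genes of the family did not separate the genotypes in the manner of Ereg. Epgn (epigen), which lies next to Ereg, measured 40.7 and 65.6 on the knockout-labelled arrays, against 39.4 and 67.3 on the wild-type genotype arrays. Egf measured 42.4 and 30.4, against 43.8 and 36.7. Nrg2 (1444491_at) measured 94.8 and 81.8, against 84.9 and 55.7, and was 219.3 on the LPS array and 91.5 on the medium array of the stimulation pair. Nrg3 (1460289_at) measured 22.9 and 57.8, against 20.9 and 50.9. Nrg4 measured 39.0 and 47.9, against 55.7 and 59.7, with 1421681_at, and 37.2 and 55.0, against 14.4 and 39.5, with 1457123_at, so its probe sets differed in sign. None of the 5 genes was called, where 0% of all tested probe sets were. Of these ligands only Nrg4, on 1421681_at, had both knockout-labelled arrays below both wild-type arrays, where 16.3% of all tested did. None had both above, where 15.4% of all tested did.

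Receptor transcripts overlapped between the genotypes on the probe set with the highest mean. Egfr, the receptor for most of these ligands, measured 395.9 and 447.6 on the knockout-labelled arrays, against 389.7 and 498.3 on the wild-type genotype arrays, with 1460420_a_at (log2 difference -0.07, SE 0.23). The same probe set measured 332.5 on the LPS array and 280.2 on the medium array. The remaining 6 Egfr probe sets did not exceed 154.1 on any array. Of these, 1435888_at was higher on both knockout-labelled arrays (46.4 and 51.3, against 21.4 and 32.9) and 1432647_at lower (123.3 and 136.3, against 146.6 and 154.1). Erbb3, a receptor of neuregulins, measured 95.2 and 117.5, against 119.6 and 96.7, with 1434606_at (log2 difference -0.02, SE 0.35). Erbb2, the co-receptor, measured 8.0 and 34.1, against 19.8 and 10.3, and 57.7 on the LPS array against 5.9 on the medium array, above the floor on 2 of the 6. Erbb4 was under it on all 6 arrays. None of the 2 receptor genes tested was called.

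Among genes of precursor release, 12 of 12 had a probe set, and Rhbdl2 was under the floor on 4 of the 6 arrays. Adam17, the main sheddase of these precursors, measured 2698 and 3646 on the knockout-labelled arrays, against 3258 and 3976 on the wild-type ones (log2 difference -0.20, SE 0.22), and 2709 on the LPS array against 2475 on the medium array. Rhbdf2, a partner that ADAM17 needs to mature in immune cells, measured 2377 and 2862, against 2371 and 2466, and 2364 on the LPS array against 1264 on the medium array. Of 12 shedding genes tested 0 were called, with a median log2 difference of -0.02 beside -0.01 over all probe sets tested, and 2 lay higher on both knockout-labelled arrays, where 15.4% of all tested did. The smallest p belonged to Adam8, a leukocyte metalloprotease, at 3659 and 1837, against 1229 and 746.8 (log2 difference 1.44, SE 0.40, adjusted p = 0.909 by limma), followed by Adam15 (log2 difference 0.43, SE 0.36). Adam8 measured 3024 on the LPS array and 4049 in medium, both wild type and both above the lower of the knockout-labelled values.

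Among inhibitors and turnover factors of the receptors, 0 of 12 tested were called (median log2 difference 0.12), and 3 lay higher on both knockout-labelled arrays, where 15.4% of all tested did. Errfi1, which encodes a feedback inhibitor of EGFR, measured 215.3 and 250.9, against 94.0 and 153.5 (log2 difference 0.95, SE 0.36, adjusted p = 0.967 by limma), and 298.2 on the LPS array. Cblb, a ubiquitin ligase gene, had a log2 difference of 0.33 (SE 0.23). Of 17 listed adaptors and Ras-ERK kinases 12 had a probe set, and of these 0 were called (median -0.09). Both knockout-labelled arrays lay below both wild-type arrays for 4 of the 12, where 16.3% of all tested did, with the smallest p for the exchange factor gene Sos1 (70.8 and 115.2, against 165.9 and 190.3) and the adaptor gene Grb2 (2953 and 2576, against 3431 and 3436).

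ERK-responsive genes, which act downstream of the receptors and of many other signals, had 0 of 22 called and a median log2 difference of 0.15. Both knockout-labelled arrays lay above both wild-type arrays for 7 of the 22 and below for 2, where 15.4% and 16.3% of all tested did. The 2 below were Egr1 (264.5 and 251.1, against 327.9 and 289.0) and Egr2 (573.5 and 529.5, against 947.2 and 948.5). Their log2 differences were -0.26 (SE 0.24) and -0.78 (SE 0.18). Dusp6, an ERK phosphatase gene, measured 522.4 and 659.0, against 191.3 and 165.7 (log2 difference 1.72, SE 0.25, adjusted p = 0.766 by limma). Ier3, an immediate early gene, measured 6413 and 5665, against 3516 and 3192 (log2 difference 0.85, SE 0.17, adjusted p = 0.818). In the stimulation pair 2 of 21 measured were at least 4-fold higher, Dusp4 (457.4 on the LPS array, 43.0 in medium) and Phlda1 (3061 and 719.3), and 2 were at least 4-fold lower, Fos (386.2 and 2654) and Egr1 (525.8 and 2919), where 0.986% of all measured were higher and 0.598% lower by this rule. With wild type 1 and 2 in place of the LPS array the log2 ratio of Dusp4 was 1.36 and 1.87, under the limit, and that of Fos was -1.22 and -2.19. Phlda1 lay under its medium value on both wild-type genotype arrays, at 263.5 and 576.4.

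Genes known to respond to cAMP and CREB, together with prostaglandin E2 genes, had the largest median among these lists, 0.58 over 15 tested, again with 0 called. The lists were written with earlier results of these data known, so this rank is a description and no test. Both knockout-labelled arrays lay above both wild-type arrays for 6 of the 15 and below for 1, where 15.4% and 16.3% of all tested did. The 1 below was Ptger4, another prostaglandin E2 receptor gene, at 837.8 and 245.4, against 1206 and 894.4 (log2 difference -1.20, SE 0.57). Ptges, the inducible prostaglandin E synthase gene, measured 5922 and 6979, against 1693 and 2396 (log2 difference 1.67, SE 0.23, adjusted p = 0.766 by limma). Ptger2, a prostaglandin E2 receptor gene that signals through cAMP, measured 166.5 and 184.3, against 31.1 and 36.2 (log2 difference 2.38, SE 0.35, adjusted p = 0.766), and its log2 difference was 1.31 with the floor at the 60th percentile. In the stimulation pair Ptgs2 (12711 on the LPS array, 931.5 in medium), Ptges (2192 and 204.5) and Nr4a3 (350.0 and 47.2) were at least 4-fold higher, and Ptger2 (64.7 and 388.7) at least 4-fold lower, of 15 measured. Over all measured, 0.986% were higher and 0.598% lower by this rule. The log2 ratio of Nr4a3 was 0.81 with wild type 1 in place of the LPS array, under the limit. Ptger2 was thus lower than in medium on all 5 LPS arrays, and least so on the knockout-labelled ones.

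Other growth factor genes of macrophages had 0 of 13 called (median log2 difference 0.28). Both knockout-labelled arrays lay above both wild-type arrays for 1 of the 13 and below for 3, where 15.4% and 16.3% of all tested did. Bmp2, among the 3 below, entered the fit through the wild-type arrays alone and could only lie below. Bmp2, a bone morphogenetic protein gene, was under the floor on both knockout-labelled arrays, at 17.3 and 19.2, against 93.4 and 109.1 on the wild-type genotype arrays, 134.6 on the LPS array and 275.5 in medium. The wild-type value was at least 3.38-fold higher (adjusted p = 0.787 by limma). This bound moves with the floor: the log2 difference was -1.76 here, -0.52 with the floor at the 60th percentile and -2.47 at the 25th. Osm, the oncostatin M gene, measured 392.0 and 214.3, against 151.3 and 169.0 (log2 difference 0.86, SE 0.37). In the stimulation pair Inhba, the activin A subunit gene, measured 3315 on the LPS array and 185.3 in medium, and Vegfa 65.0 and 265.2, the 2 genes of 13 past 4-fold (0.986% of all measured higher, 0.598% lower). Vegfa was close to the limit, at a log2 ratio of -2.03, and did not pass it after quantile normalization (-1.78), with the floor at the 60th percentile (-1.91), as log2(value + 16) (-1.80) or with wild type 1 in place of the LPS array (-0.31).

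Ereg lies on chromosome 5 between Epgn and Areg, followed by Btc, and after the chemokine genes Cxcl3, Cxcl15, Cxcl1 and Cxcl2 and Mthfd2l in the RefSeq gene order of GRCm38.p6. These neighbours were picked after the values of Ereg had been seen. Of the 12 protein-coding genes nearest in that order, 10 had a probe set. The genes directly around Ereg had log2 differences of 0.01 (SE 0.44) for Epgn, 0.40 (SE 0.29) for Mthfd2l, 0.08 (SE 0.35) for Btc and 0.17 (SE 0.39) for Parm1, against 2.80 for Ereg. Cxcl3, a neutrophil chemoattractant gene, measured 10184 and 3977 on the knockout-labelled arrays, against 2305 and 2114 on the wild-type ones (log2 difference 1.53, SE 0.43, adjusted p = 0.918 by limma). Cxcl1 had a log2 difference of 0.82 (SE 0.37) and Cxcl2 of 0.32 (SE 0.24). Cxcl3, Cxcl1 and Cxcl2 measured 8309, 12004 and 20662 on the LPS array and 16.5, 383.9 and 1634 on the medium array, while Ereg was under the floor on both.

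**Figure D4:**
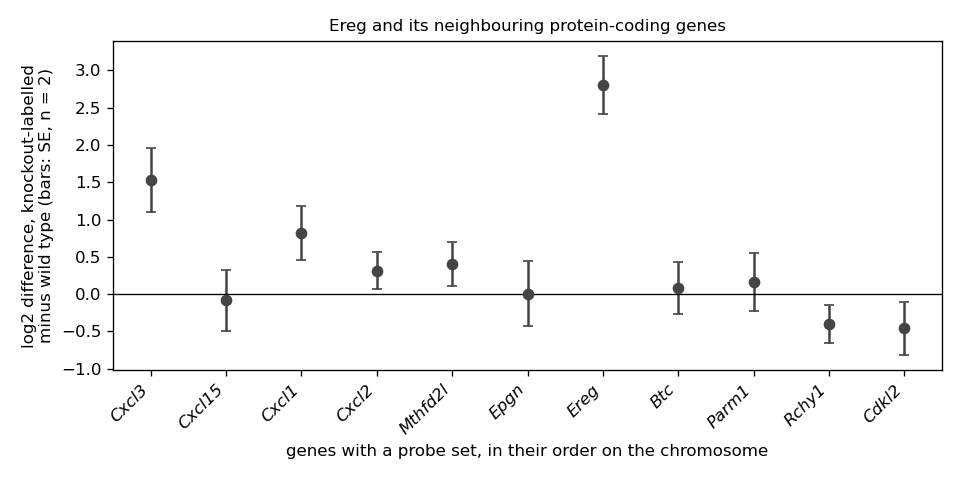
Log2 difference, knockout-labelled minus wild type, after LPS, for Ereg and 10 neighbouring protein-coding genes in their order along the chromosome (points), with the SE of the fit across all probe sets (bars, n = 2 per genotype). Ereg lies at 2.80, its direct neighbour Epgn at 0.01, and the nearest value is that of Cxcl3 at 1.53.

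The genes whose profile over the 6 arrays was closest to that of Ereg were found among 14420 genes by the root mean square difference of log2 values, each centred on its own mean, with values under the floor set to it. The closest was Hp, the haptoglobin gene, at 0.229 log2 units. It measured 859.5 and 1054 on the knockout-labelled arrays, against 131.1 and 249.7 on the wild-type genotype arrays, 136.5 on the LPS array and 104.7 in medium. S100a8, a calgranulin gene, followed at 0.324, with 8853 and 7314, against 1251 and 1238, and 857.0 and 605.0 in the stimulation pair. The next were Lox (0.441), a collagen cross-linking enzyme gene, Ctse (0.555), a protease gene, and Mboat1 (0.557). All 5 were higher on both knockout-labelled arrays than on every wild-type array. They were picked for their likeness to Ereg on these same arrays, so this shared direction follows from the choice. Unlike Ereg, Hp, S100a8 and Ctse were above the floor on all 6 arrays.

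**Figure D5:**
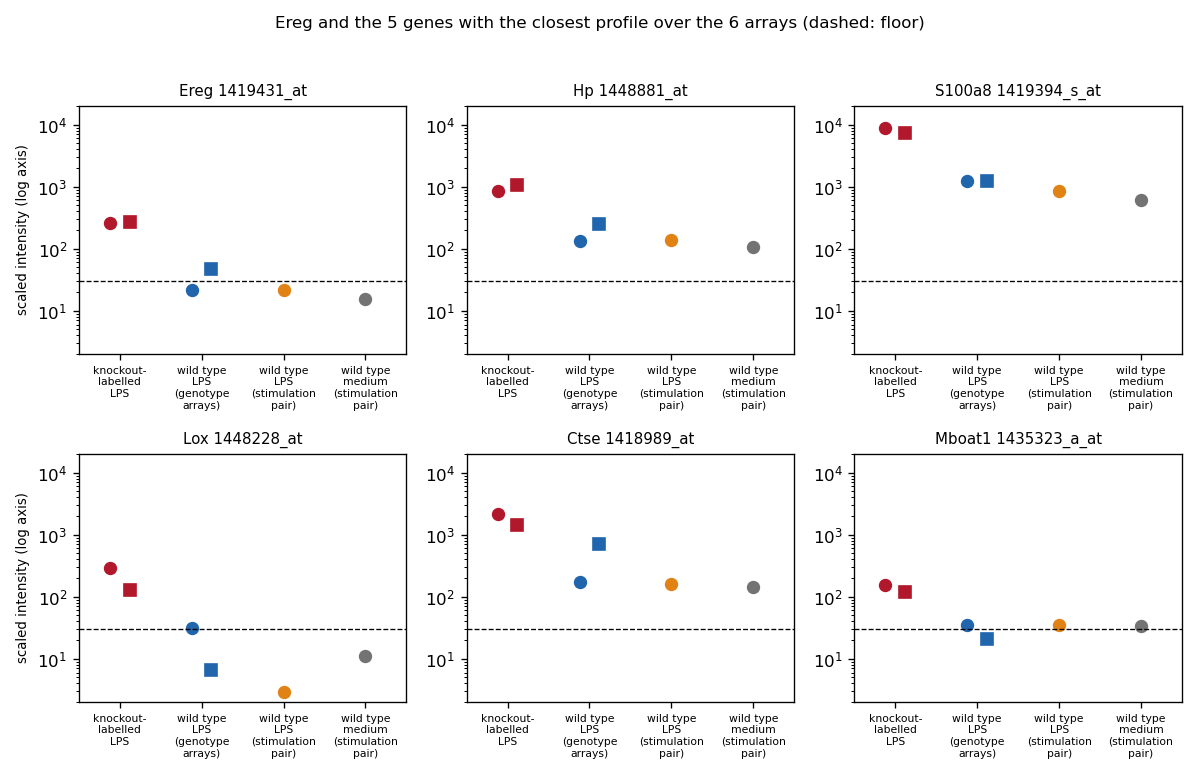
Scaled intensity (log axis) of Ereg and the 5 genes closest to it over the 6 arrays, with groups along the horizontal axis, single arrays as points and the floor of 29.9 as a dashed line. Hp, at 859.5 and 1054 on the knockout-labelled arrays and 104.7 to 249.7 on the wild-type arrays, has the closest profile.

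For Hbegf (1418350_at) the 5 closest genes were Chrna6, Bpifb3, Msx3, Serpinb9b and 5430437J10Rik, at 0.193 to 0.249 log2 units. Serpinb9b reached 450.3 on wild type 2, and the remaining 4 did not exceed 128.2 on any array. The other members varied by less than 4-fold over the 6 arrays on their probe set with the highest mean, with values under the floor set to it, so no such list was made for them.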

How the data were processed

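RNA was measured on 6 one-colour arrays of mouse macrophages. Each deposited value is a linear intensity of 1 probe set, computed with MAS5 per the submitters' processing notes; its version and scaling target are not given in the sources used here. From 45101 rows, 64 control probe sets were left out. Arrays were rescaled to 1 trimmed mean, a floor was set at the pooled 40th percentile and log2 was taken. Probe sets with 1 gene symbol (34945) were named; 932 had several and 9160 none, and the gene identifiers of 34741 were found in RefSeq GRCm38.p6.

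The genotype test was limma (version 3.58.1, run in R 4.3.3, lmFit and eBayes with a trend), two-sided, with Benjamini-Hochberg adjustment over all probe sets that exceeded the floor on 2 or more genotype arrays and a threshold of 0.05. For a single value, the smallest two-sided p of an exact permutation is 0.333 at this size. The stimulation pair had no test and was read by a 4-fold rule. A further limma fit set 3 wild-type LPS arrays against medium, over probe sets that exceeded the floor on the medium array or on any 2 of the 4. A pathway gene stands for its brightest probe set by mean.

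Members and lists were chosen with earlier results of these data known. The names given are all member probe sets, other family ligands and receptors, and from each list the 2 genes with the smallest p between the genotypes and up to 4 past the 4-fold rule; the 5 closest profiles were sought for members that varied at least 4-fold (2 log2 units). Genes with a further role in a statement (Adam17, Rhbdf2, marker genes) were picked after their values were seen. The same holds for the genotype values of Egr1, Egr2 and Ptger4, given as the genes of their lists that lay below. Intensity has no read depth: the number of arrays and the floor limit the precision. The fit was tested on simulated data. Alternatives were other scalings, floors, filters, fold rules and priors, a block, left-out arrays and an added array. Figures used Python 3.11.15 and matplotlib 3.10.9.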

Additional observations from a re-analysis of the deposited data

How the results depend on the processing

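The log2 difference of Ereg kept its sign under all 14 alternatives, at 1.90 to 3.14. That of Hbegf changed sign only without wild type 2 on 1418350_at (range -1.64 to 0.27 over 14), and on 1418349_at it ran from -1.57 to -0.09 over 13. The labels do not say what the numbers 1 and 2 mark; deviations from the group means correlated at r = 0.35 across probe sets between genotypes of the same number, and with 2 pairs this was not taken as a pairing. With the number as a replicate block, limma made 116 calls over all probe sets (85 higher, 31 lower), Ereg among them, and 6 in the pathway lists (Adam8, Ier3, Dusp6, Thbs1, Ptges and Igf1). The values as deposited gave 4 calls. Leaving out 1 array gave 5 to 68 calls, 0 to 2 of them in the pathway lists, and 1 to 3 member probe sets with genotypes at least 2-fold apart; the 3 came without wild type 1, when both Hbegf probe sets joined Ereg. The 461 probe sets past 4-fold in the stimulation pair became 966 with the floor at the 25th percentile, 3293 by a 2-fold and 99 by an 8-fold rule, 936 with wild type 2 in place of the LPS array and 258 with 1 probe set per gene. Of the calls 62.3% were higher, against 51.9% with the lower floor, 72.5% with the floor at the 60th percentile, 44.4% at 2-fold, 82.8% at 8-fold, and 44.8% and 47.8% with wild type 1 and 2. Pathway genes past the rule (10) became 24 at 2-fold and 4 at 8-fold, and member probe sets 3 at 2-fold. The 3 wild-type LPS arrays against medium gave 278 calls with the floor at the 60th percentile, 78 with log2(value + 16) and 48 when 2 of the 4 arrays had to exceed the floor, a filter added after seeing the data; no member was called in any of them. The small differences of Egfr turned to 0.0015 as deposited, 0.0693 with the LPS array added as wild type and ran from -0.243 to 0.111 without 1 array, and those of Erbb3 to 0.043 as deposited, 0.0046 after quantile normalization, 0.0754 with that array and from -0.177 to 0.128 without 1 array. That of Adam15 was -0.0317 without knockout-labelled 1 and at most 0.894 without 1 array. The log2 LPS ratio of Phlda1 was -1.45 and -0.32 with wild type 1 and 2 in place of the LPS array. The causes were not tested.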
